A study of Mus musculus with 2 samples.

Results

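Narrow promoter regions were stretches of open chromatin under 600 bp wide at the starts of protein-coding genes in mouse T cells. Overlapping peaks of both ATAC-seq libraries on chromosomes 1 to 19 were merged. A merged region was a member if it held a peak of each library, if its strongest summit, the point of highest signal in the peak, lay no more than 1000 bp from the start of a protein-coding transcript, and if it was under 600 bp wide. Of 82687 merged regions, 65318 had a peak in both libraries, 13587 of these were promoter regions, and 850 were narrow, which is 6.26% of the promoter regions. The remaining 12737 are called wider promoter regions below, and 19620 shared regions of the same narrow width lay away from promoters. Width chose the members, so widths and peak signals are given as description.

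ATAC-seq reads open chromatin through a transposase that inserts sequencing adapters into DNA not held in nucleosomes. The data were 2 libraries of primary T cells of mouse strain C57BL/6NJ, in 1 group, which the labels number as biological replicates 1 and 2. Both cite the same donor record, with sex not collected and age unknown, so the spread between them may be technical. The labels link to a protocol for differentiating CD4+ T cells and give no genotype or treatment, and the words Th0, 72hrs and ASTARR.insert in the peak names are not explained in the sources used here.

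A promoter is the stretch around a transcription start where general factors and RNA polymerase II assemble. Many mammalian promoters, those of widely used genes above all, lie in CpG islands, which are rich in GC and in the CG dinucleotide and are bound by factors such as SP and NRF1 and by ETS-family factors. Genes used in few cell types more often start in DNA poor in CpG, where a TATA box may place the start. In T cells, AP-1 (dimers of Fos and Jun proteins), RUNX and ETS-family factors bind many regulatory regions, both near and far from genes.

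Start windows of 7 T-cell genes among the members are printed because they show these differences in letters. Each holds 150 bases before the start and 20 bases from the start on, on the strand of the gene, read 5′ to 3′ from the mm10 reference assembly. Capitals mark the first transcribed base, any TATAAA and any match to 1 of 22 short motifs. The windows are chr13:56482227-56482396 on the minus strand for Il9, chr11:53634683-53634852 on the minus strand for Il13, chr1:20784251-20784420 on the minus strand for Il17f, chr1:60977777-60977946 on the plus strand for Icos, chr1:171559043-171559212 on the plus strand for Cd244a, chr3:101287920-101288089 on the minus strand for Cd2 and chr15:61986884-61987053 on the plus strand for Myc.
Il9: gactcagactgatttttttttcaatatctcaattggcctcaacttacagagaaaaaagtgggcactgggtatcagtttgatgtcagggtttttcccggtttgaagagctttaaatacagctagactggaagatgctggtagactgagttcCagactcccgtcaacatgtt
Il13: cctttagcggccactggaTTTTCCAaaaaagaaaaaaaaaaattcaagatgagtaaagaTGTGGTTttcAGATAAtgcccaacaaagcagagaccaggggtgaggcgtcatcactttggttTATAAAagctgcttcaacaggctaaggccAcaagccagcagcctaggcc
Il17f: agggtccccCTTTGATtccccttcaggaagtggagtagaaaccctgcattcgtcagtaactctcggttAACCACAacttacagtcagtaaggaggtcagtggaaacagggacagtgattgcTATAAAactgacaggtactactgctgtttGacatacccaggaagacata
Icos: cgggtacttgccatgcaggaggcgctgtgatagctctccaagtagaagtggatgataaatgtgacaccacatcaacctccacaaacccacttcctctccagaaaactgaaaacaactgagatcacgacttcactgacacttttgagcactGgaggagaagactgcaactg
Cd244a: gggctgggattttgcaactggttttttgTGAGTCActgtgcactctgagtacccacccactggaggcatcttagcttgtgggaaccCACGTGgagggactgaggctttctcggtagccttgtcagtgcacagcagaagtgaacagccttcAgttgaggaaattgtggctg
Cd2: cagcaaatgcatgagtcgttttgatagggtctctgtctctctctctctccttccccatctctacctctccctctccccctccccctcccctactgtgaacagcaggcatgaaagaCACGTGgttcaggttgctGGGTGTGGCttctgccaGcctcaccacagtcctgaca
Myc: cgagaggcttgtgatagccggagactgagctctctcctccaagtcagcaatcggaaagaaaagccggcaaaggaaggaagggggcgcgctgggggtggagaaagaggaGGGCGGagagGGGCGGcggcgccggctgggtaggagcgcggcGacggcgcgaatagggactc

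The Il17f and Myc windows are at starts other than the 5′ end of the gene, and the Il17f summit lies in an annotated intron. The cytokine genes Il13 and Il17f each held TATAAA beginning 29 bases before the start and a RUNX match, 91 bases before the start in Il13 and 82 bases before it in Il17f. Il13 also held an NFAT match 132 bases and a GATA match 81 bases before the start, and Il17f a TCF/LEF match 141 bases before it. The windows of Il9 and Icos held no whole match, which says only that these letters are not in them. Il9 had an AP-1 match within 100 bp of its summit that the printed window does not hold whole. Cd244a held an AP-1 match 122 bases before the start and an E-box 64 bases before it, and Cd2 an E-box at 35 bases and a KLF match at 17 bases. The Myc window held 2 SP matches at 42 and 32 bases before the start and lay in the GC-rich DNA that was uncommon among the members.

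Windows around matches in members among the highest in signal for each motif show the motifs that are counted further on. Capitals mark the motif, or in Acy3 the TATA box and the first transcribed base, and all are read 5′ to 3′ on the strand of the gene nearest the summit. Matches were sought on both strands, as the letters given or as their reverse complement. The windows, in mm10, are chr9:110849406-110849525 for Prss46, chr3:31038884-31039003 for Prkci, chr3:94423525-94423644 for Tdrkh, chr9:69480542-69480661 for Anxa2, chr1:46425370-46425489 for Dnah7c, chr7:90426461-90426580 for Ccdc89 and chr19:3986520-3986589 for Acy3, all on the plus strand, and chr1:173535972-173536091 for Ifi214 on the minus strand. Prss46 and Prkci show AP-1, Tdrkh RUNX, Ifi214 IRF, Anxa2 CTCF, Dnah7c ETS and Ccdc89 RFX. The annotation puts the summit in an intron in Prss46, Prkci, Tdrkh and Anxa2, and outside genes in Ifi214, Dnah7c, Ccdc89 and Acy3.
Prss46: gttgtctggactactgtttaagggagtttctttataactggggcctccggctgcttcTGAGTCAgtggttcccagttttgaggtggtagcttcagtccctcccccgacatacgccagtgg
Prkci: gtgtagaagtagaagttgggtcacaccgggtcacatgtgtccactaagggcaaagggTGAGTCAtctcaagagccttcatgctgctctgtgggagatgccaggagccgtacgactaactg
Tdrkh: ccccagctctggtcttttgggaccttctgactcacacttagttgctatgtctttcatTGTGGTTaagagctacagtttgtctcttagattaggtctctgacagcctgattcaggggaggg
Ifi214: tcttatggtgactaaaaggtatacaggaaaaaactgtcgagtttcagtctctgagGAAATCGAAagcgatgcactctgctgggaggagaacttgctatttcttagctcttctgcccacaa
Anxa2: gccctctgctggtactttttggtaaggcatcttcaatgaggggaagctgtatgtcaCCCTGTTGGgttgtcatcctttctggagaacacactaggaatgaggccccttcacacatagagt
Dnah7c: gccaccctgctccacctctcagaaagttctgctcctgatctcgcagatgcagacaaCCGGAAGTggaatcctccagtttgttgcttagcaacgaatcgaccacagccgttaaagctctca
Ccdc89: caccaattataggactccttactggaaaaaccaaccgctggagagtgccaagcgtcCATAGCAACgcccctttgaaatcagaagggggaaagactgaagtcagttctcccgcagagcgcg
Acy3: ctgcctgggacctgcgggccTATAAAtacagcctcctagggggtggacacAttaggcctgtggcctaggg

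Narrow promoter regions carried weak peaks. Peak signal, read here as the fold of reads over the caller's local background, had a median of 3.97 (range 1.45 to 17.3) in replicate 1 and 3.94 (1.48 to 18.0) in replicate 2. In wider promoter regions the medians were 11.1 in replicate 1 and 10.6 in replicate 2, and in narrow regions away from promoters they were 5.01 in replicate 1 and 4.88 in replicate 2. The members therefore had the lowest median of these classes in both libraries, though width, which chose them, and signal come from the same peaks. The median merged width was 474 bp (range 235 to 599 bp), and within the members width and mean signal had a Spearman rho of 0.20 over 850 regions that share both libraries.

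**Figure D1:**
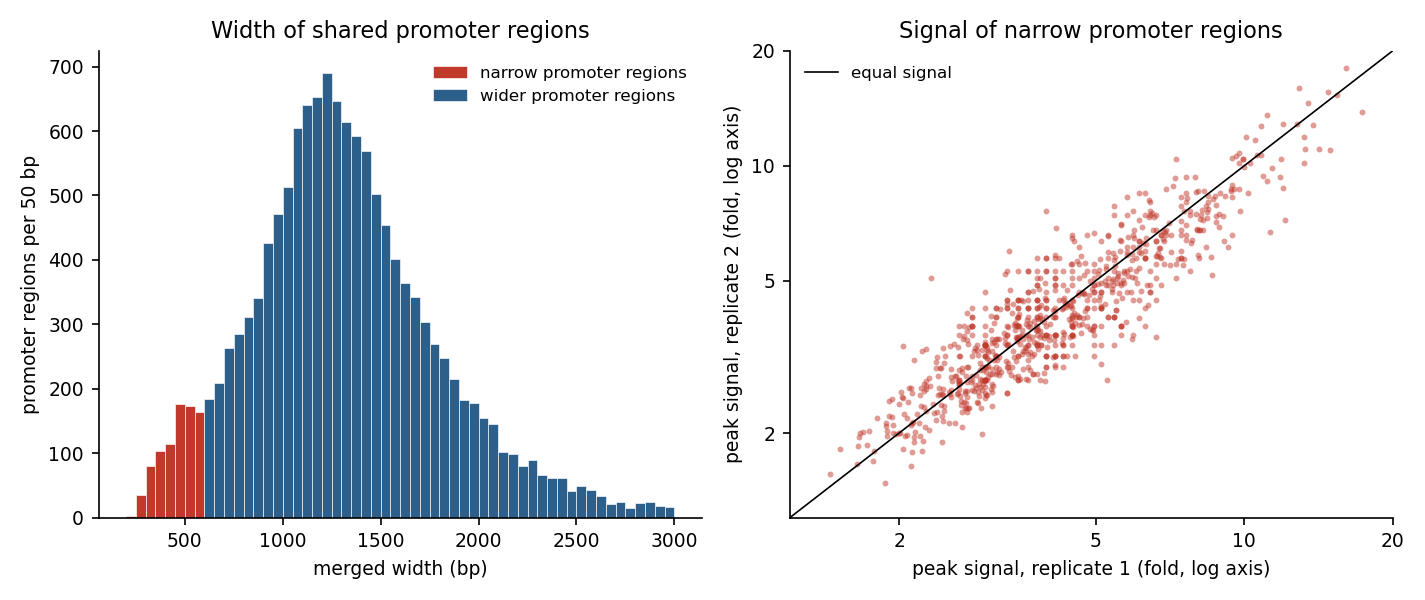
Left, number of shared promoter regions per 50 bp of merged width up to 3000 bp, narrow ones (under 600 bp) in red and wider ones in blue; right, peak signal of the 850 narrow promoter regions in replicate 1 (x axis) and replicate 2 (y axis), both log axes, with the line of equal signal. The narrow regions form the low tail of 1 broad width distribution, and their signals lie along the line from 1.45 to 18.0-fold.

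The libraries ranked the members alike. Pearson's r of log2 signal between libraries was 0.905 and Spearman's rho was 0.884 over the 850 regions, and the median ratio of replicate 1 to replicate 2 was 1.02. Signal was higher in replicate 1 in 462 members and in replicate 2 in 388. The log2 ratio had an SD of 0.28 over the members and of 0.15 over wider promoter regions, where r was 0.972. A ratio over 1.5-fold in either direction was seen in 26 members (3.06%) and in 0.542% of wider promoter regions, and only Mtus2 passed 2-fold, with 2.32 in replicate 1 and 5.09 in replicate 2. The next widest gaps were at Taf3, a TFIID subunit gene (3.97 in replicate 1, 7.64 in replicate 2), and at Wdr66 (5.27 in replicate 1, 2.76 in replicate 2).

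The peaks of the members were also less certain by the authors' own measure. The deposited −log10 q had a median of 13.1 in replicate 1 and 9.72 in replicate 2 over the members, and of 167 in replicate 1 and 117 in replicate 2 over wider promoter regions. A value of at least 5 in both libraries was reached by 629 members (74.0%) and by 98.5% of wider promoter regions. The summits of both libraries lay within 50 bp of each other in 580 members (68.2%), at a median distance of 23 bp.

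The 10 members with the highest mean signal were far above the median. Gm8890, a predicted gene, led with 16.1 in replicate 1 and 18.0 in replicate 2. Prss46, which encodes a serine protease, had 17.3 in replicate 1 and 13.8 in replicate 2, and Ccdc89, a coiled-coil protein gene, had 15.4 in replicate 1 and 15.3 in replicate 2. Prkci, the gene of an atypical protein kinase C, had 14.8 in replicate 1 and 15.6 in replicate 2. The last 6 of the 10 were Olfr658, H2-DMb2 (a subunit of the molecule that loads peptides onto MHC class II), Anxa2 (a calcium-dependent phospholipid-binding protein), Psat1 (an enzyme of serine synthesis), the transcription factor gene Mef2b and Elavl2 (a neuronal RNA-binding protein), with 11 to 16.0 in either library. Among the 10, Elavl2 alone met the CpG-island criteria defined further on. In Gm8890, Prkci and Anxa2 the summit lay 374, 465 and 479 bp after a start known only from transcripts annotated as incomplete there. Such starts were nearest in 7.73% of members with a mean signal under 3 and in 16.7% at 8 or more. The nearest start was not the 5′ end of the gene in Prss46, Prkci, Anxa2, Mef2b and Elavl2. Prkci, Anxa2, Psat1 and Mef2b also had a wider promoter region.

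At the other end, the 5 narrowest members were Tut4 (235 bp), Pglyrp2 (237 bp), Ttc33 (244 bp), Apob (250 bp) and Blmh (252 bp), close to the narrowest deposited peaks of 204 bp in replicate 1 and 224 bp in replicate 2. Tut4, a uridylyltransferase gene, had a signal of 2.00 in both libraries, and Apob, the apolipoprotein B gene, had 3.81 in replicate 1 and 5.09 in replicate 2. Just inside the limit, at 599 bp, Rspo4 had 3.97 in replicate 1 and 3.18 in replicate 2, Cdh2 had 4.47 in replicate 1 and 3.61 in replicate 2, and Tspyl5 had 5.46 in replicate 1 and 7.85 in replicate 2. Just outside it, at 600 bp, Atp2b4 had 6.79 in replicate 1 and 5.52 in replicate 2, Pou2f1 had 4.14 in replicate 1 and 4.67 in replicate 2, and Samd3 had 15.9 in replicate 1 and 16.7 in replicate 2. Regions on both sides of the limit thus had signals of the same order, apart from Samd3.

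Narrow regions reached 833 of 20722 autosomal protein-coding genes (4.02%), of which 456 (2.20%) had narrow promoter regions alone and 377 had both a narrow and a wider one. A further 12481 genes had wider regions alone and 7408 had no shared region with its summit within 1000 bp. Of the members, 830 lay near the starts of 1 gene and 20 near those of 2 or more. The T-cell core list holds 28 defining genes of T cells, and 25 of them had a shared promoter region. So had 5 of 15 B-cell, 5 of 18 myeloid and 11 of 14 neuronal genes, and 13314 of all 20722. The T-cell share was well above the B-cell and myeloid ones. The neuronal share came near it, so these counts alone do not identify the cell type. Only Cd2 of the 28 had a narrow region alone, and Lef1 and Thy1 had narrow and wider ones.

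Among the T-cell lists, helper-subset genes had the largest share held in narrow regions alone. Of 27 helper-subset regulators and cytokines, 4 had narrow regions alone, against 2.20% of all genes, and all 4 were interleukin genes. Il9, a cytokine of Th9 cells, had 6.38 in replicate 1 and 4.32 in replicate 2, and Il17f, of Th17 cells, had 4.37 in replicate 1 and 4.39 in replicate 2. Il13, of Th2 cells, had 3.20 in replicate 1 and 4.23 in replicate 2, and Il10, an anti-inflammatory cytokine, had 3.50 in replicate 1 and 3.82 in replicate 2. The summits lay 76, 71 and 3 bp before the start in Il9, Il17f and Il13, and 815 bp after it, in an intron, in Il10. The libraries differed most at Il9 and least at Il17f. In the whole interleukin family, 5 of 33 genes had narrow regions alone, Il31 being the fifth with 4.30 in replicate 1 and 4.88 in replicate 2. The list is short and no test of it was run.

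Receptor and effector genes of T cells were also among the members. Icos, an inducible co-stimulatory receptor, had 5.64 in replicate 1 and 4.93 in replicate 2, with its summit 65 bp before the start. Prf1, the gene of the pore-forming protein perforin, had 4.48 in replicate 1 and 6.48 in replicate 2, at 610 bp before the start. Cd244a, a receptor of the SLAM family, had 3.48 in replicate 1 and 3.18 in replicate 2. These genes had narrow regions alone, and Prf1 showed the widest gap between libraries among them.

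Several well-known T-cell genes carried weaker narrow regions. Cd2, an adhesion receptor, had 2.45 in replicate 1 and 2.61 in replicate 2, and Tnf, an inflammatory cytokine, had 2.08 in replicate 1 and 2.41 in replicate 2. Thy1, a surface glycoprotein that marks mouse T cells, had 2.01 in replicate 1 and 2.00 in replicate 2, and Lef1, a partner of β-catenin, had 2.23 in replicate 1 and 1.79 in replicate 2. Egr2 and Myc, which encode transcription factors induced on activation, had 1.89 and 2.68 in replicate 1, and 2.03 and 2.96 in replicate 2. Foxp1 and Gimap8, of the naive and memory and the GIMAP GTPase lists, lay between 1.80 and 2.19 in both libraries. Apart from Cd2 and Tnf, these genes also had a wider promoter region, and for all of them the next shared region was within 1 kb.

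**Figure D2:**
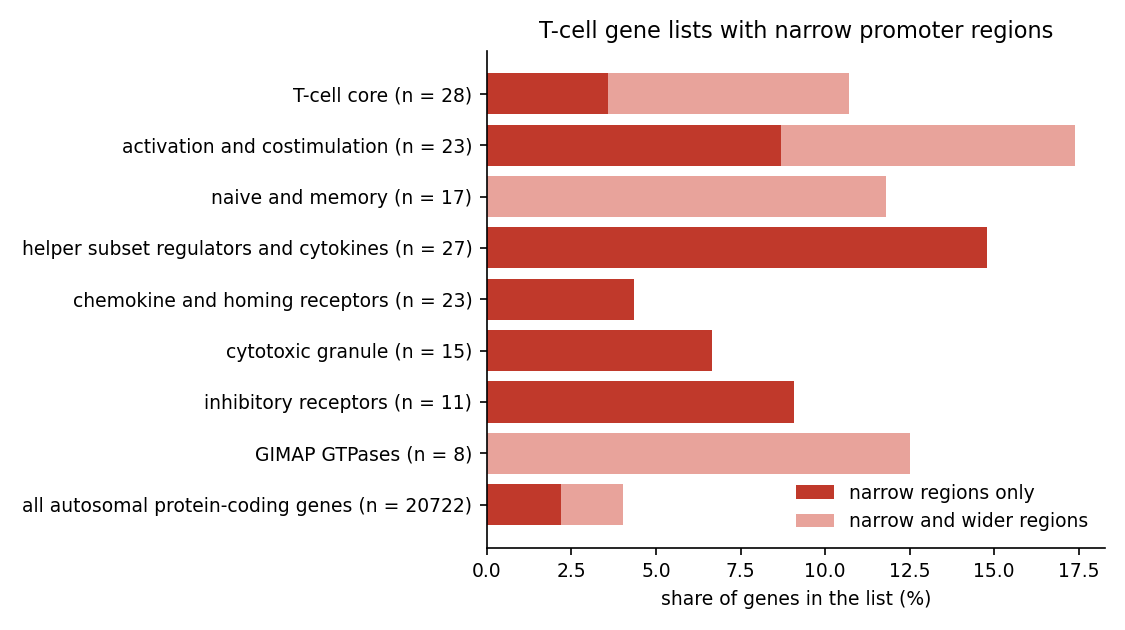
Share of the genes of each T-cell list (y axis, n genes) whose promoters held narrow regions alone (dark) or narrow and wider regions (light), in percent, with all autosomal protein-coding genes at the bottom. Helper-subset regulators and cytokines had the longest dark bar, 4 of 27 genes, against 2.20% of all genes; the lists hold 8 to 28 genes, so 1 gene moves a bar by several percent.

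Some interferon-response and antigen-presentation genes held narrow regions too. Isg15, a ubiquitin-like protein induced by interferon, had 3.12 in replicate 1 and 3.88 in replicate 2, and Oas3, a 2′-5′ oligoadenylate synthetase, had 3.32 in replicate 1 and 3.41 in replicate 2. Both had an IRF match within 100 bp of the summit, and both had narrow regions alone. Ciita, the master regulator of MHC class II genes, had 3.48 in replicate 1 and 4.03 in replicate 2, at an internal start. A region near both Zbtb22 and Tapbp, the tapasin gene, had 6.89 in replicate 1 and 6.34 in replicate 2.

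Markers of some other cell types were among the members as well. Narrow regions alone were found at 1 of 15 B-cell genes (6.67%), at 2 of 15 genes of natural killer and innate lymphoid cells (13.3%), at 1 of 14 hepatocyte genes (7.14%) and at 2 of 14 muscle genes (14.3%), beside 2.20% of all genes and 3.57% of the T-cell core list. Blnk, a B-cell receptor adaptor, had 5.09 in replicate 1 and 5.34 in replicate 2. Klrk1, the NKG2D receptor, had 5.30 in replicate 1 and 5.94 in replicate 2, and Klre1, of the same lectin-like family, had 2.58 in replicate 1 and 3.42 in replicate 2. The hepatocyte gene was Apob, the muscle genes were Tnnt3 and Des, which encode proteins of the contractile apparatus and its filaments, and Tal1, 1 of 12 erythroid genes, had narrow and wider regions. Summits lay 822 bp after the nearest start in Apob, 756 bp in Tal1, 515 bp in Des and 303 bp in Tnnt3. In Klre1 the summit lay 767 bp before it. For Apob, Tal1, Tnnt3, Blnk and Klrk1 that start was not the 5′ end of the gene. No narrow region was found at 18 myeloid, 14 neuronal, 15 epithelial or 18 housekeeping genes, lists too short for a count of 0 to set them apart from the 4.02% of all genes with a narrow region. The part of other cell types in the sample was not tested, and whether RNA was made from any of these genes was not measured.

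Counts in gene families are set beside 2.20% of all genes with narrow regions alone and 4.02% with any. No narrow region was found at 78 cytosolic ribosomal protein genes, 77 mitochondrial ribosomal protein genes, 38 proteasome subunit genes, 44 NADH dehydrogenase subunit genes or 34 ubiquitin-conjugating enzyme genes. Other families used in most cells held a few. Narrow regions alone were found at 1 of 28 RNA polymerase subunit genes (Polr3a, 3.57%) and 2 of 67 replication-dependent histone genes (2.99%), near the share of all genes. Narrow and wider ones were found at 1 of 17 tRNA synthetase genes (Vars, 5.88%). Zinc finger genes named Zfp had narrow regions alone at 13 of 385 genes (3.38%), near the share of all genes, and olfactory receptors at 8 of 1127 (0.71%), below it. Among the 17 olfactory receptor genes with a shared promoter region, those 8 made up 47.1%, against 3.42% of all genes with a region. Olfr658 had 12.9 in replicate 1 and 16.0 in replicate 2, and Olfr547 had 10.8 in replicate 1 and 12.7 in replicate 2. Clustered protocadherins, adhesion proteins of neurons, had narrow regions alone at 5 of 57 genes (8.77%), led by Pcdhgb4 with 6.62 in replicate 1 and 5.52 in replicate 2, and Hox genes at 4 of 39 (10.3%). These families were picked out from 26 after their counts were seen. How reads mapping to several places in the genome were counted is not given in the sources used here.

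Summits of the members were spread over the whole window around the start. The summit lay within 100 bp of the nearest start in 35.6% of narrow promoter regions and in 60.3% of wider ones, and over 500 bp away in 27.9% of narrow and 8.15% of wider regions. Summits upstream of the start made up 54.8% of narrow and 55.8% of wider regions. In narrow regions 39.8% of summits were in an intron and 22.7% in a UTR exon, against 18.7% and 37.3% in wider regions. The nearest start was the 5′ end of the gene in 42.7% of narrow and 55.7% of wider regions, and it came only from transcripts that the annotation marks as incomplete at the start in 9.88% of narrow and 2.38% of wider regions. Starts on both strands, as at divergent promoters, lay within 1000 bp of 1.53% of narrow and 8.71% of wider summits. Part of the members therefore lay near starts that were internal, incomplete or not directly at the summit.

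Neighbouring open regions were close to many members. Another shared region lay within 1 kb of 208 members (24.5%, 95% interval 21.6 to 27.5%), of 9.31% of wider promoter regions and of 11.9% of narrow regions away from promoters. For 133 of the 208 that neighbour was a wider promoter region. Members with such a neighbour had a median mean signal of 3.14, against 4.29 for the 642 with none. At Tnf, for example, the next region was 944 bp away and the peaks had a −log10 q of 20.9 in replicate 1 and 24.1 in replicate 2 at signals of 2.08 and 2.41. The part of neighbouring peaks in the local background, and so in these signals, was not tested.

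CpG-island sequence was found at a minority of the members. The criteria were a GC content of at least 50% and an observed-to-expected CpG ratio of at least 0.6 in the 500 bp around the summit. They were met by 180 of 850 narrow promoter regions (21.2%, exact 95% interval 18.5 to 24.1%), by 76.7% of wider promoter regions (76.0 to 77.4%) and by 0.943% of narrow regions away from promoters. All promoter regions together stood at 73.2%, and all 52065 annotated protein-coding starts at 46.8%. The median GC content of the 200 bp around the summit was 55.0% in narrow promoter regions, 65.5% in wider ones and 47.5% in narrow regions away from promoters. The median CpG ratio was 0.347 in narrow promoter regions, 0.785 in wider ones and 0.191 away from promoters, so the members lay between the other classes in both measures. No test of these differences was run, since the members were chosen by width from the same peaks.

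**Figure D3:**
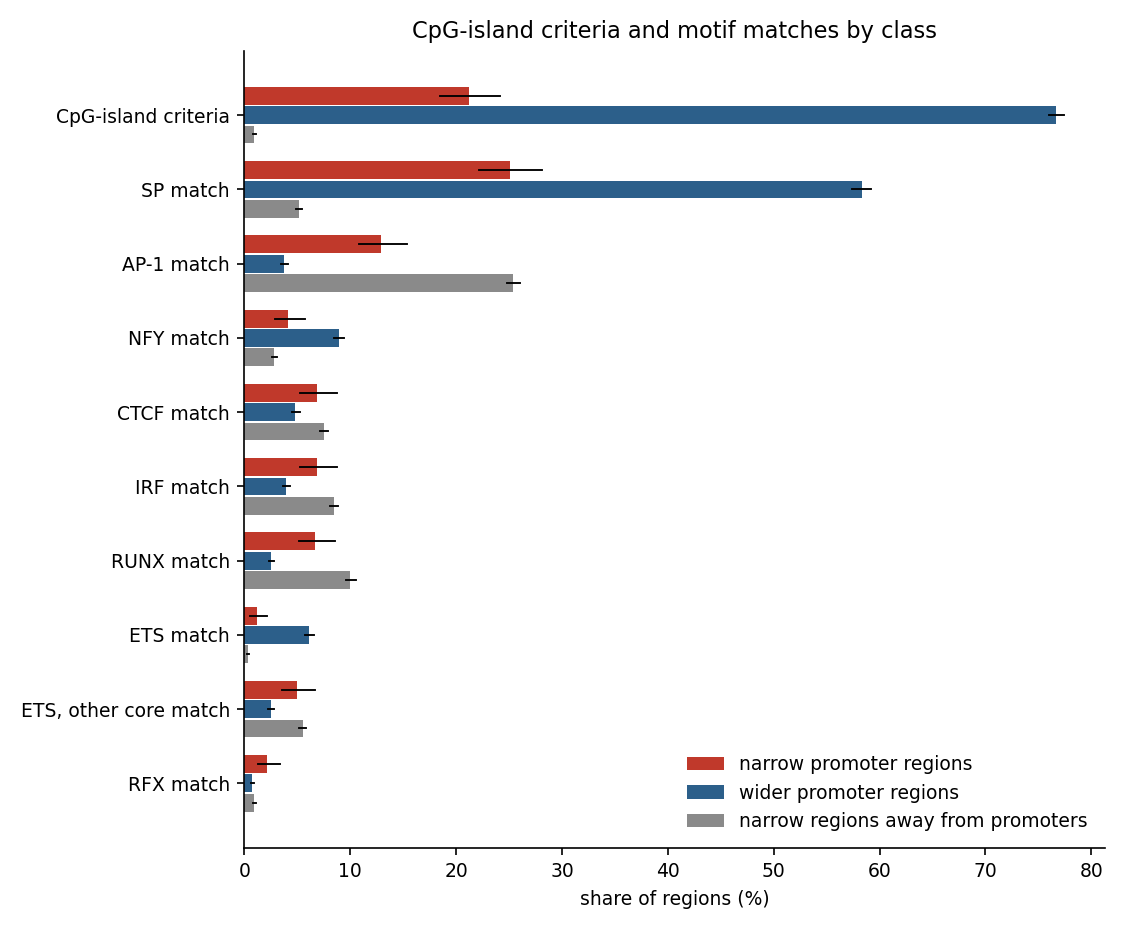
Share of regions (x axis, percent) that met the CpG-island criteria in 500 bp or held a motif match in 200 bp around the summit (y axis), for narrow promoter regions (red, n = 850), wider promoter regions (blue, n = 12737) and narrow regions away from promoters (grey, n = 19620); black lines are exact 95% binomial intervals. Among the measures drawn, the red bar lies between the blue and the grey one except for the RFX match, where it is the longest.

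The share of CpG islands differed with signal in opposite ways in the classes. Among narrow promoter regions it was 31.4% of 194 at a mean signal under 3, 21.6% of 394 at 3 to 5, 12.8% of 196 at 5 to 8, and 13.6% of 66 at 8 or more. In wider promoter regions of the same signal it was 43.0%, 56.8%, 64.0% and 82.3%. The strongest narrow regions were thus mostly poor in CpG, whereas the strongest wider regions were mostly CpG-rich, and the gap between the classes was smallest in the weakest regions. By width over all promoter regions, the share was 13.1% under 400 bp, 23.0% at 400 to 500 bp, 24.9% at 500 to 600 bp, 31.0% at 600 to 700 bp and 81.6% at 1000 to 1500 bp, with no break at the limit of 600 bp.

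**Figure D4:**
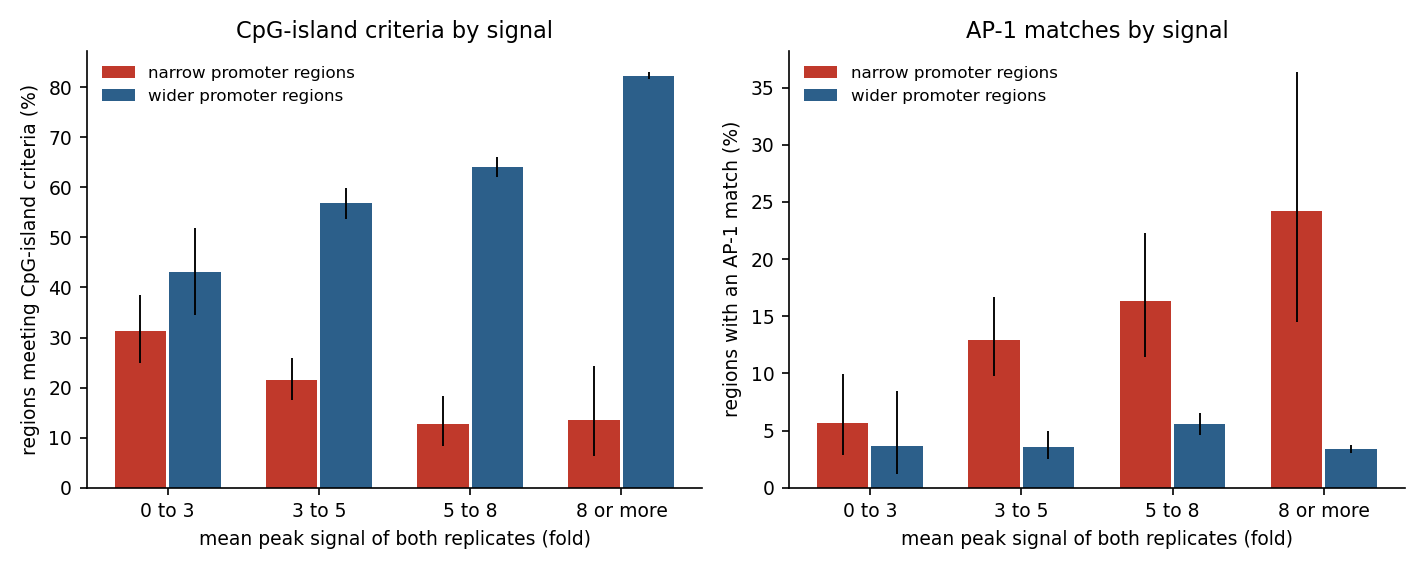
Share of regions (y axes, percent) that met the CpG-island criteria (left) or held an AP-1 match (right) by mean peak signal of both replicates (x axis, fold), for narrow promoter regions (red) and wider promoter regions (blue); black lines are exact 95% binomial intervals. In narrow regions the CpG-island share was 31.4% in the lowest and 13.6% in the highest signal class and the AP-1 share 5.67% and 24.2%, while in wider regions the CpG-island share was 43.0% and 82.3%.

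AP-1 was the motif whose share stood furthest above that of wider promoters among the T-cell factors sought. TGACTCA was found within 100 bp of the summit in 110 narrow promoter regions (12.9%, 95% interval 10.8 to 15.4%), in 3.78% of wider promoter regions, in 25.4% of narrow regions away from promoters and in 2.67% of windows of the same 200 bp around all starts. All promoter regions together stood at 4.36%. In windows of the same length 500 bp to each side of the members' summits the share was 2.82%, so the matches were concentrated at the summit. By signal the members' share was 5.67% under 3, 12.9% at 3 to 5, 16.3% at 5 to 8 and 24.2% at 8 or more, against 3.70%, 3.61%, 5.56% and 3.37% in wider regions. By position it was 8.91% of members with the summit within 100 bp of the start and 20.3% of those with it over 500 bp away. Wider regions rose with distance too, with 2.57% within 100 bp and 11.2% over 500 bp away. The Prss46 and Prkci windows printed above hold such matches. Il9, Il10, Prf1, Cd244a, Oas3, Mx1, Gimap8 and Klrk1 are among the list members with one.

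AP-1 matches were also counted apart in regions with and without CpG-island composition. Among regions that did not meet the CpG-island criteria, AP-1 matches were found in 107 of 670 narrow promoter regions (16.0%, 95% interval 13.3 to 19%), in 10.8% of wider promoter regions (9.69 to 12%) and in 25.6% of narrow regions away from promoters. Among those that met them, the shares were 3 of 180 members (1.67%) and 1.66% of wider promoter regions. Split in this way, narrow and wider promoter regions were closer than in the undivided counts.

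**Figure D5:**
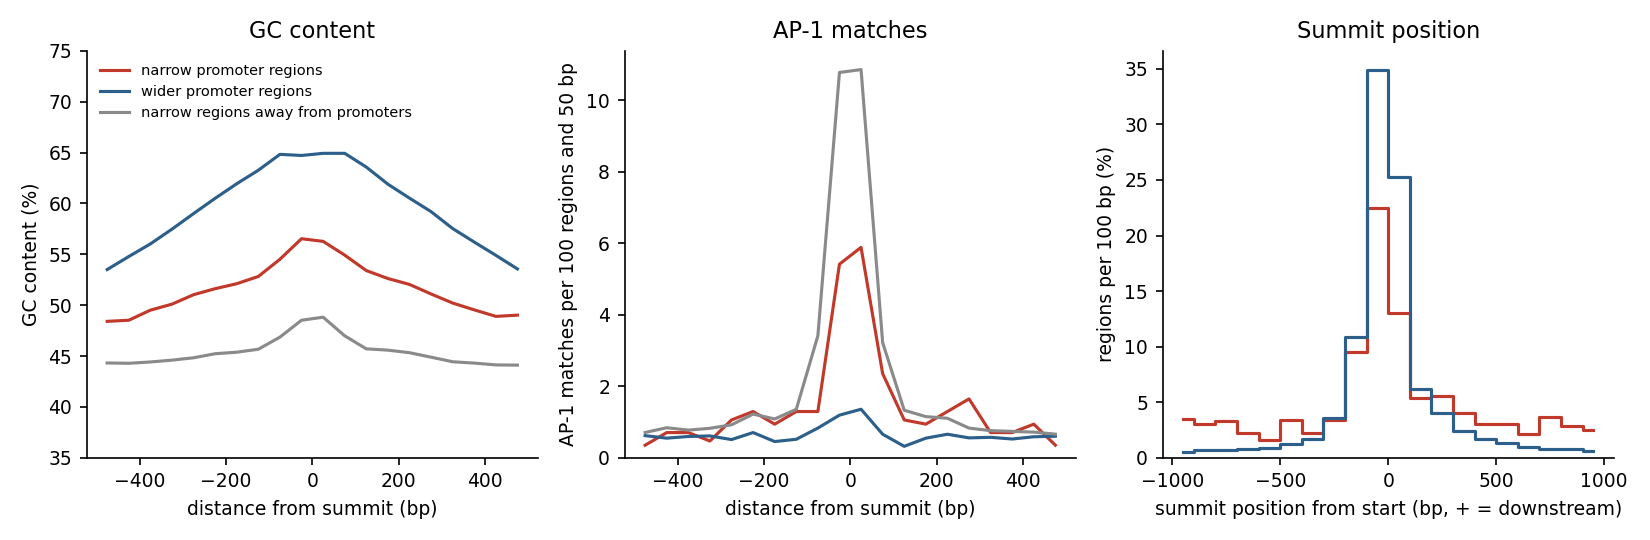
Left and middle, GC content (percent) and AP-1 matches (per 100 regions in 50 bp bins) by distance from the summit (x axis, bp); right, share of summits per 100 bp (percent) by position from the nearest start (x axis, bp, positive downstream), for narrow promoter regions (red), wider promoter regions (blue) and, left and middle, narrow regions away from promoters (grey). The red lines lie between the others in GC content at each distance and in AP-1 matches at the summit, and red summits fall more often than blue ones beyond 500 bp from the start.

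Other motifs divided along the same lines. TGTGGTT of RUNX factors was found in 6.71% of narrow promoter regions, 2.54% of wider ones, 1968 of the 19620 narrow regions away from promoters and 2.93% of all starts. GAAANNGAA of IRF factors, which respond to interferon, was found in 6.82% of narrow, 3.95% of wider, 8.44% of distal narrow regions and 5.10% of all starts, and in 6.06% of the flanks of the members, close to the share at the summit. CCANNAGGG of the insulator protein CTCF was found in 6.82% of narrow, 4.82% of wider, 7.48% of distal narrow regions and 3.99% of all starts. ACAGGAAG, a form of the ETS site common in lymphoid enhancers, was found in 4.94% of narrow, 2.48% of wider, 5.49% of distal narrow regions and 2.27% of all starts. In the undivided counts of these motifs the members were nearer to the distal than to the wider promoter regions.

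Motifs of CpG-island promoters were less frequent in the members. GGGCGG of SP factors was found in 25.1% of narrow promoter regions, 58.3% of wider ones, 5.16% of narrow regions away from promoters and 37.7% of all starts. CCGGAAGT, the ETS site that holds a CpG, was found in 10 members (1.18%), 6.11% of wider, 0.347% of distal narrow regions and 3.85% of all starts. AGCCAAT of NFY was found in 4.12% of narrow, 8.94% of wider regions and 5.10% of all starts, GCGCATGCG of NRF1 in 0.471% of narrow, 2.22% of wider regions and 1.48% of all starts, AAGATGGC of YY1 in 0.588% of narrow, 3.45% of wider, 1.38% of distal narrow regions and 2.84% of all starts, and TGACGTCA, the cAMP response element, in 1.18% of narrow, 2.43% of wider regions and 1.59% of all starts. SP matches differed by composition too, with 51.7% of members that met the CpG-island criteria and 17.9% of those that did not. In wider promoter regions the shares were 66.6% and 31.1%, so the members stayed lower in both groups.

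The other 10 motifs were counted in the same way. TGGAAAA of NFAT was found in 3.18% of narrow, 2.12% of wider regions and 3.22% of all starts, AGATAA of GATA factors in 5.76%, 2.39% and 5.34% in the same order of classes, and TTCNNNGAA of STAT factors in 6.35%, 3.78% and 4.78%. CTTTGAT of TCF/LEF was found in 2.35% of narrow, 1.22% of wider regions and 1.86% of all starts, TCACACC of T-box factors in 2.35%, 1.96% and 2.19%, and GGGANTTTC of NF-kB in 1.29%, 0.722% and 0.747%. CACGTG, an E-box, was found in 3.88% of narrow, 6.73% of wider regions and 5.09% of all starts, GGGNGTGGC of KLF in 3.65%, 6.16% and 4.04%, TTTCCCGC of E2F in 0.706%, 1.28% and 0.878%, and ACTACAATT of ZNF143 in 0.118%, 0.448% and 0.271%. NFAT, GATA, STAT and TCF/LEF matches were thus more frequent in narrow than in wider regions, and E-box, KLF, E2F and ZNF143 matches less frequent. At the members' own flanks the shares were 4.76% for NFAT, 9.88% for GATA, 5.29% for STAT and 2.59% for TCF/LEF, so apart from STAT these were no more frequent at the summit than beside it.

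RFX and YY1 were the exceptions to the order of the classes among the 22 motifs, RFX with its highest share in the members and YY1 with its lowest. GTTGCNATG, the site of RFX factors, which drive genes of motile and sensory cilia, was found in 18 members (2.12%, 1.26 to 3.33%), in 0.730% of wider promoter regions, 0.912% of narrow regions away from promoters, 0.797% of all starts and 0.471% of the members' flanks. Ccdc89 led these members, and its window is printed above. Tdrkh followed with 7.94 in replicate 1 and 9.34 in replicate 2, then Glipr1l3 with 7.61 in replicate 1 and 8.06 in replicate 2. Cfap97d2 had 6.62 in replicate 1 and 7.43 in replicate 2, with its summit 33 bp before the start. Spef1, a protein of sperm flagella, had 4.93 in replicate 1 and 3.71 in replicate 2. A region at Bmi1, which encodes a Polycomb protein, was also among them, with 3.69 in replicate 1 and 2.92 in replicate 2. Tspyl5, Eci2, Adat1 and Arhgef40 held the match too. This motif was singled out after its values were seen, as were Cfap97d2, Spef1 and Bmi1 among its members, and 18 is a small count. Whether cilia genes were more common among the 18 than among all members was not tested.

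TATA boxes, counted as the exact letters TATAAA, were rare in both promoter classes. TATAAA began 20 to 40 bp before the nearest start, on the strand of the gene, in 16 members (1.88%, 1.08 to 3.04%), in 0.801% of wider promoter regions (0.653 to 0.971%) and at 1.54% of all starts. Where the nearest start was the 5′ end of the gene, the share was 3.31% of members and 1.01% of wider regions. At other starts it was 0.821% of members and 0.532% of wider regions. Of the 16, 4 were the cytokine genes Il10, Il13, Il17f and Tnf, picked out after their values were seen. The strongest were Chga, the gene of a secretory-granule protein, with 8.07 in replicate 1 and 8.60 in replicate 2, and Acy3, an aminoacylase gene, with 9.43 in replicate 1 and 6.58 in replicate 2. Calb2, the calretinin gene, followed with 8.11 in replicate 1 and 6.79 in replicate 2. The summit of Chga lay 202 bp after the start and that of Acy3 44 bp before it, so a TATA box at the start was not always under the summit.

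Sequence marked as repetitive in the reference was somewhat more common in the members than in wider promoters. Bases marked in this way made up a mean of 8.82% of the 200 bp around the summit in narrow promoter regions, 4.90% in wider ones and 13.8% in narrow regions away from promoters. More than 50% of the window was marked in 20 members. The share of narrow regions among promoter regions ranged over the chromosomes between 3.87% on chromosome 13 and 7.89% on chromosome 17, and chromosome 2 held the most members, 80.

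The lists of both libraries held 76230 peaks on chromosomes 1 to 19 in replicate 1 and 72904 in replicate 2. Depth per library is unknown, because only peaks were used, so a start with no region cannot be told apart from one below the caller's threshold, and a peak's width moves with depth and threshold. With 1 group of 2 libraries no comparison between conditions was possible, and intervals cover counting error over regions only.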

How the data were processed

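ATAC-seq peak lists of 2 libraries of mouse T cells, called per library and not on pooled reads, were used on mm10, per the labels. The aligner, the caller and its threshold are not given in the sources used here. In the deposited files the score is a whole number per peak and was not analysed further. The deposited signal ratio was read as fold enrichment over local background, from its values, and the −log10 p and −log10 q are the authors' own. The summit is the deposited offset from the peak's start. Peaks were listed down to a −log10 q of 1.02 (replicate 1) and 1.01 (replicate 2). Whether reads were shifted for the transposase is not given in the sources used here.

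Peaks on chromosomes 1 to 19 were merged where they overlapped by at least 1 bp, leaving out 1874 and 1829 peaks of replicates 1 and 2. A library's signal in a region was that of its strongest peak there. Starts were the 52065 of 20722 autosomal protein-coding genes in GENCODE release M21, on the same assembly as mm10. Of genes with no region, some had a region whose summit lay over 1000 bp away. Sequence came from the reference assembly of mm10. Consensus matches to 22 motifs were counted in 200 bp around the summit; motifs were counted separately and may overlap. Printed windows hold at most 30 bases of annotated UTR, and stronger members over that limit were passed over. Intervals are exact Clopper-Pearson 95% intervals. No test was run, since 1 group of 2 libraries allows none and the members were chosen from these peaks. Counting code was tested on simulated data.

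The members, the 19 gene lists, the 26 families and the motifs were chosen with earlier results of these data known. Named members were the 10 strongest, the 5 narrowest, the 3 on each side of the width limit, those with the largest ratios, up to 3 of each gene list and up to 2 of each main motif. A withheld item among them is not reported here. Others are named where a count or motif was described after its values were seen. Alternatives were other width limits, start distances, peak thresholds, overlaps and windows, gene 5′ ends alone, and each library alone. Python 3.11.15, numpy 2.4.6, pandas 2.3.3, scipy 1.17.1 and pysam 0.24.0 were used.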

Additional observations from a re-analysis of the deposited data

How the results depend on the processing

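Of 82 values recomputed under other settings, 54 stayed within the exact 95% interval of the value given, or within 1.5 times for the number of regions, and 28 did not. The number of regions, 850, was 513 at a width limit of 500 bp, 1595 with summits within 2000 bp of a start, 497 with gene 5′ ends alone, and 1541 to 1646 in either library alone. The median signal, 3.97, was 3.81 at a limit of 500 bp, 4.34 at 700 bp, 4.64 at a −log10 q of at least 5, and 3.64 to 3.77 in either library alone. Median GC content, 55.0%, was 56.5% within 500 bp, 52.0% within 2000 bp, 56.5% at gene 5′ ends and 54.3% in a 300 bp window, against 64.5% to 66% in wider regions over all settings. The CpG-island share, 21.2%, was 24.3% at 700 bp, 26.3% within 500 bp, 13.2% within 2000 bp and 28.0% at gene 5′ ends, against 71.5% to 81.2% in wider regions. The AP-1 share, 12.9%, was 10.1% within 500 bp, 16.4% within 2000 bp and 10.5% in a 100 bp window, against 2.36% to 5.02% in wider regions, and the ETS share, 1.18%, was 0.471% in a 100 bp window. The share of genes with narrow regions alone, 2.20%, was 1.30% at 500 bp, 3.39% at 700 bp, 2.62% within 2000 bp, 1.68% at a −log10 q of at least 5, and 3.91% to 4.18% in either library alone. The cause of these shifts was not tested beyond the settings' own effect on which regions were counted. Members stayed below wider regions in GC content and CpG-island share, and above them in AP-1 share, in all settings run.

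No paired analysis was possible because the 2 libraries form 1 group. Depth is unknown, and width and signal depend on it, so which regions count as narrow would change with depth.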
